A study of Mus musculus with 31 samples.

Results

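The genes described here are 34 that build or mark the supporting tissue of an organ: receptors of fibroblasts and mural cells, collagens, other matrix proteins, smooth muscle proteins and endothelial receptors. They were listed by symbol, with earlier results of these data known, and all 34 had an Ensembl identifier among the 29120 gene identifiers with a count in any library. Grouped by role, 2 are receptors for platelet-derived growth factor (Pdgfra, Pdgfrb), 4 fibrillar collagens (Col1a1, Col1a2, Col3a1, Col5a1), 4 collagen VI chains and a fibril-associated collagen (Col6a1, Col6a2, Col6a3, Col14a1), and 4 basement membrane proteins (Col4a1, Col4a2, Lama4, Nid1). A further 3 are small proteoglycans (Dcn, Lum, Bgn), 4 matrix glycoproteins (Fn1, Fbn1, Sparc, Postn), 4 smooth muscle proteins (Acta2, Tagln, Myh11, Des), and 9 endothelial genes (Pecam1, Cdh5, Kdr, Tek, Eng, Robo4, Stab2, Vwf, Madcam1).

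Fibroblasts and mural cells secrete the fibrillar collagens and proteoglycans, while endothelial and mural cells together lay down the basement membrane of collagen IV, laminin and nidogen. In the spleen this tissue forms the capsule, the trabeculae, the reticular fibre network and the vessels, and the red pulp sinuses are lined by endothelium that carries the scavenger receptor Stab2. Dendritic cells grown from bone marrow are blood-lineage cells, of which fibronectin (Fn1) is a common product and most of the other listed genes are not.

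The libraries were RNA-seq of C57BL/6 mice, either wild-type or Gpr34-/-, which lack a G protein-coupled receptor of myeloid cells. Whole spleens at 12 weeks of age gave 10 wild-type and 9 knockout libraries. Dendritic cells came from marrow of the femur and tibia of male mice of 8 to 16 weeks, grown for 10 days with supernatant of a GM-CSF secreting cell line, and were left naive or given lipopolysaccharide (LPS, a bacterial outer membrane component) on day 11 for 8 h, with 3 libraries in each of the 4 groups. The labels name no promoter, Cre or second allele, and do not say whether libraries came from separate animals or cultures, so the p-values speak only of the spread among the libraries at hand, which may be technical.

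Spleen libraries held 56834377 to 133277070 counts and dendritic cell libraries 38998746 to 74164853. Levels are given as CPM, counts relative to library size, after TMM scaling, done separately for the 2 kinds of library, so no test compares levels between spleen and cells. Even numbers made up 57.8 to 62.1% of the gene counts up to 200, an excess over an equal split, and whether mates of a read pair were counted singly is not given in the sources used here; counts are not independent molecules. Counts of Gpr34 itself were 308 to 986 in wild-type and 42 to 156 in knockout spleens. Wild-type dendritic cells had 199 to 324 counts when naive and 65 to 125 after LPS. Cells labelled knockout had 0, 120 and 4 counts when naive and 0, 117 and 104 after LPS (replicates 2, 3 and 4). Some knockout spleens also held over 100 counts, but all lay below every wild-type spleen. In cells, 3 of those 6 libraries held over 100 counts, and the values of 117 and 104 after LPS lie within the wild-type range. These cells are therefore called "labelled knockout" throughout. As a check of the labelled cell type, 8 dendritic cell and macrophage markers summed to 15606 to 20923 CPM in the 12 cell libraries, and, scaled separately, to 9596 to 21724 CPM in spleens, so that list alone does not set the cells apart. Markers of B cells, T cells and erythroid cells summed to at most 8.19, 2.31 and 1.99 CPM in the cell libraries. Those of megakaryocytes and platelets, which also make Vwf, summed to 35.1 to 130 CPM there, and those of skeletal muscle to 8.67 to 60.7 CPM. Their part in the levels of the listed genes was not tested.

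In wild-type spleens, ranked by mean CPM per kilobase of exon, Pecam1, an adhesion receptor of endothelium and of several blood cells, was highest at 76.6, followed by the calcium-binding matrix protein Sparc at 63.7 and the proteoglycan Bgn (biglycan) at 49.3. Next came the TGF-beta co-receptor Eng (endoglin) at 36.5, smooth muscle actin Acta2 at 36.1, the actin-binding protein Tagln at 34.8 and Col3a1, the main collagen of reticular fibres, at 31.1. Neighbours in that order, such as Eng, Acta2 and Tagln, lay closer together than the library spread of Acta2, whose level ran from 42.3 to 115 CPM. Lowest were Lama4, a laminin chain of vessel walls, at 0.437 and the proteoglycan Lum (lumican) at 0.434 CPM per kilobase. Both Pdgf receptors lay in the lower part of the order, Pdgfrb at 5.34 and Pdgfra at 2.39.

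**Figure D1:**
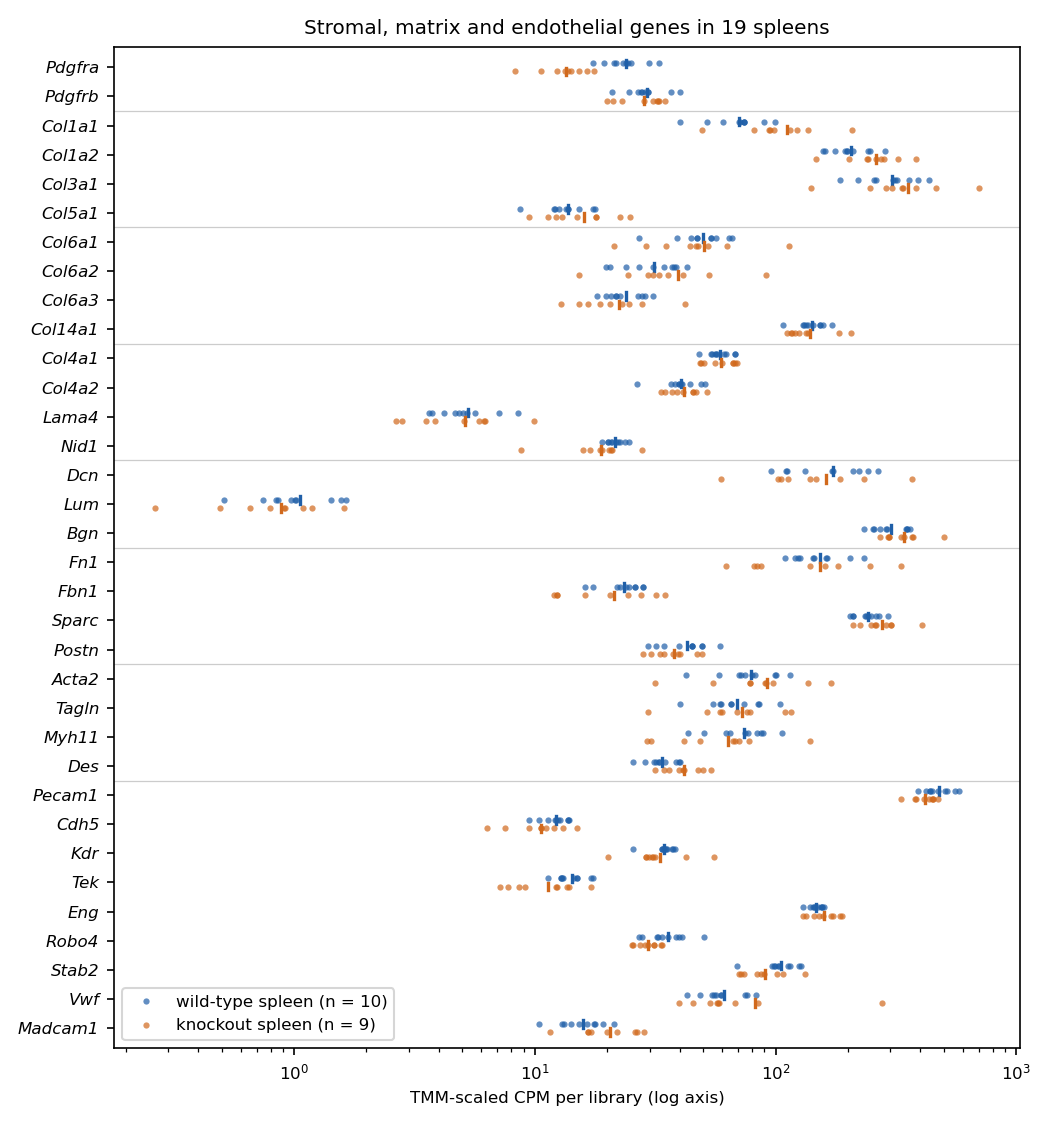
TMM-scaled CPM of the 34 genes in 10 wild-type (blue) and 9 knockout (orange) spleens on a log axis. Each point is 1 library, vertical ticks are group means, and grey lines separate the roles. Pdgfra is the gene whose groups barely meet (17.5 to 32.9 against 8.28 to 17.6 CPM), and a single knockout library lies far to the right for Vwf.

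The spleen comparison asked which of these genes differed between genotypes. Of the 34 genes, all of which passed the filter on low counts, 1 differed: Pdgfra, the receptor that marks fibroblasts and reticular stroma, was lower in knockout spleens. Over all 20371 genes tested 0.177% were called in either direction. Median log2 fold changes were -0.02 for the 34 genes and 0.01 for all genes tested, with 16 of the 34 estimates positive and 18 negative. Whole spleen RNA cannot tell fewer cells of a type from less RNA per cell.

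Pdgfra stood at 19.4, 32.9, 29.9, 21.4, 24.5, 23.2, 23.9, 17.5, 21.7 and 25.1 CPM in wild-type replicates 1 to 10. In knockout replicates 1 to 9 it stood at 13.3, 10.6, 17.6, 13.7, 16.5, 15.3, 14.2, 12.4 and 8.28 CPM. The groups touch at a single point, since knockout replicate 3 lies just above the lowest wild-type spleen, replicate 8. Means were 24 ± 4.63 CPM (SD, n = 10) and 13.5 ± 2.89 CPM (SD, n = 9). The log2 change, -0.82 ± 0.13 (SE), had an adjusted p of 0.0162 in edgeR's quasi-likelihood test with Benjamini-Hochberg adjustment. Leaving out any single spleen kept the change between -0.88 and -0.76, with adjusted p from 0.00764 to 0.0472. With a block for replicate number in the fit, the gene did not pass. The gene lies on chromosome 5 at 75152292 to 75198215 on the plus strand of GRCm38 and overlaps the annotated genes Gm42802, Gm42803 and Mir7025, whose reads could not be told apart if counting ignored strand.

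The start of the gene that was called in spleen is shown as the bases upstream of its annotated first exon (chr5:75152001-75152250, plus strand, GRCm38.p6, RefSeq), to give the window in which promoter motifs were searched.
Pdgfra: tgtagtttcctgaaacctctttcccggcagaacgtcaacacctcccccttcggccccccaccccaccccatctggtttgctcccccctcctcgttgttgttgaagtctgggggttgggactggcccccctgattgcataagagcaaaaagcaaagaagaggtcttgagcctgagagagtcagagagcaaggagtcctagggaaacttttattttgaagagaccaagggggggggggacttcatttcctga
No match to the 2 motifs described further on for the genes that moved with LPS was present in it. The window ends at 75152250, short of the gene start at 75152292 given above, and the bases between were not searched.

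The paralogous receptor Pdgfrb, of pericytes and vascular smooth muscle, did not follow Pdgfra. It was at 20.9 to 40.3 CPM (median 28.3) in wild-type and 19.9 to 34.9 CPM (median 30.9) in knockout spleens, with fully interleaved groups. Its log2 fold change was -0.04 ± 0.13 (SE) with an edgeR adjusted p of 0.878. Of 11 ligands of the receptors among these genes (Pdgfa to Pdgfd, Vegfa to Vegfc, Angpt1, Angpt2, Gdf2, Slit2), 0 passed the test, with a median log2 fold change of -0.06.

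Among the fibrillar collagens, the 4 estimates were all positive (median 0.29) and 0 passed edgeR's test. Col1a1, the alpha1 chain of type I collagen, came nearest. Its lowest, median and highest levels were 40.3, 72.4 and 99.4 CPM in wild-type and 49.4, 98.3 and 208 CPM in knockout spleens, so the ranges overlap widely. The log2 fold change was 0.66 ± 0.20 with an edgeR adjusted p of 0.118. DESeq2 gave 0.0328 and limma's voom 0.0416 for the same gene, and without knockout replicate 6 edgeR gave 0.75 with an adjusted p of 0.0263. Without knockout replicate 3 the value fell to 0.49, with an adjusted p of 0.208. Col1a2, its partner chain, was at 207 ± 40.9 CPM (SD, n = 10) and 262 ± 67.9 CPM (SD, n = 9), with an edgeR adjusted p of 0.235. Col3a1 was at 305 ± 76.7 and 356 ± 157 CPM, and Col5a1, which sets fibril diameter, at 13.7 ± 2.67 and 16.1 ± 5.26 CPM (SD, n = 10 and 9).

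The remaining matrix roles gave estimates on both sides of 0, and 0 of their 15 genes passed the test. Collagen VI and Col14a1 ran from -0.09 (Col6a3) to 0.33 (Col6a2), basement membrane genes from -0.20 (Nid1) to 0.04 (Col4a2), small proteoglycans from -0.27 (Lum) to 0.18 (Bgn), and glycoproteins from -0.18 (Postn) to 0.20 (Sparc), all in log2. Fn1 had the same mean in both genotypes, 153 CPM, but an SD of 39.4 in wild-type (n = 10) against 89.3 in knockout spleens (n = 9). Among smooth muscle genes, Des (desmin, the muscle intermediate filament) had the smallest unadjusted p, at 33.7 ± 4.76 and 41.9 ± 7.47 CPM (SD, n = 10 and 9), with a log2 fold change of 0.31 ± 0.10 and an edgeR adjusted p of 0.148.

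Of the 9 endothelial genes 0 passed, and the estimates ran from -0.32 for Tek, the angiopoietin receptor, to 0.43 for Vwf. The value of Vwf rested on knockout replicate 4, without which it was -0.07 (edgeR adjusted p of 0.849). DESeq2, at its default handling of outlying counts, gave -0.07. Whether it kept the count of that replicate unchanged was not checked. Robo4, a guidance receptor that stabilises vessels, was at 35.9 ± 6.88 and 29.6 ± 3.16 CPM (SD, n = 10 and 9), an adjusted p of 0.181. Madcam1, the lymphocyte-homing receptor of the marginal sinus, was at 15.8 ± 3.26 and 20.5 ± 5.6 CPM, an adjusted p of 0.228. The endothelium-defining markers Cdh5, Kdr, Tek and Pecam1 together summed to 446 to 642 CPM in wild-type and 378 to 527 CPM in knockout spleens, ranges that overlap. Of 96 other listed genes of matrix, vessel wall and splenic stroma, 0 were called by edgeR, with a median log2 fold change of 0.02. DESeq2 called 3 of them higher and 1 lower, where it called 873 genes in all against edgeR's 36, and 3541 genes had an unadjusted edgeR p under 0.05.

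Single spleens moved many of these genes together. Knockout replicate 3 was the highest of the 19 spleens for 21 of the 34 genes, with a median log2 deviation of 0.61 from the mean of all spleens. Knockout replicate 6 was the lowest for 10 genes and replicate 9 for 6. By role, replicate 3 deviated by 1.08 in collagen VI and Col14a1, 0.97 in fibrillar collagens, 0.94 in smooth muscle genes and 0.68 in glycoproteins, but by -0.15 in the median of endothelial genes. Replicate 6 deviated by -1.12 in smooth muscle genes and -0.90 in small proteoglycans, and by -0.01 in endothelial genes. Wild-type replicate 7 showed -0.65 in smooth muscle genes and 0.01 in endothelial genes. The median over the 9 endothelial genes stayed between -0.24 and 0.30 in all 19 spleens and that over the 4 basement membrane genes between -0.31 and 0.41. Single endothelial genes departed in both directions: in knockout replicate 3 Kdr was at 55.6 CPM, the highest of the 19 spleens, and Tek at 7.19 CPM, the lowest. Other spleens departed too, such as wild-type replicate 5 at -0.59 and knockout replicate 4 at 0.57 in fibrillar collagens.

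**Figure D2:**
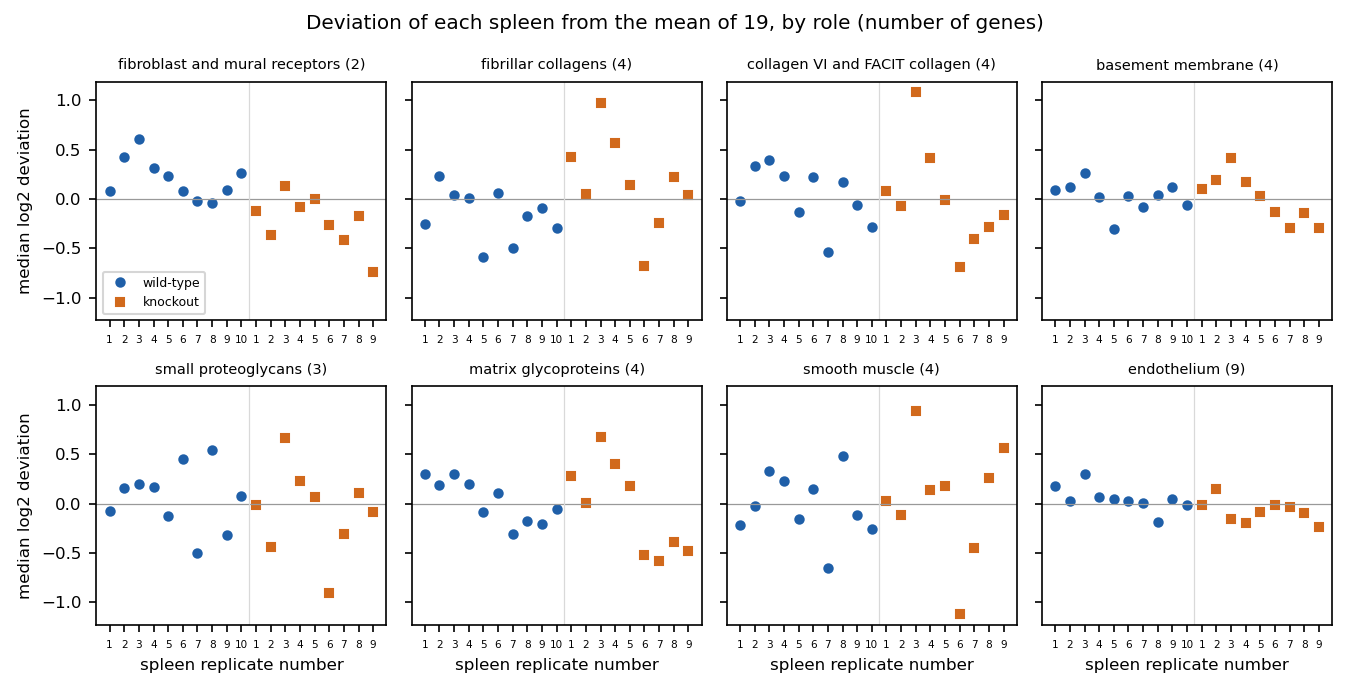
Median log2 deviation of the genes of each role from their mean over 19 spleens, 1 point per library, wild-type circles on the left and knockout squares on the right of each panel. Knockout replicates 3 and 6 lie at opposite ends for collagens, proteoglycans and smooth muscle, from 1.08 to -1.12. Their medians over the 9 endothelial genes are -0.15 and -0.01, which average over single genes that moved both ways.

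Some markers of other tissues also stood out in these spleens, though not always in the direction of the listed genes. In knockout replicate 3, the 5 fibroblast-defining markers, all of them among the 34 genes, summed to 981 CPM against 273 to 650 in the other 18, and mesothelium and epithelium markers (6 of 6 detected) to 285 CPM against 46.4 to 142. Its exocrine pancreas markers (8 of 8 detected) summed to 2914 CPM and those of replicate 6 to 2839 CPM, against 11.2 to 1343 in the other spleens. The 2 libraries with the most pancreas RNA thus stood at opposite ends for fibroblast markers, at 981 and 273 CPM. The part of these tissues in the gene levels was not tested. Without both libraries, Pdgfra changed by -0.91 with an edgeR adjusted p of 0.01, Col1a1 had 0.59 with 0.0506, and 391 genes were called in all.

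Vwf, the clotting factor of endothelium and platelets, was at 276 CPM in knockout replicate 4 and at 39.7 to 84.9 CPM in the other 18 spleens. That library also had the highest sum of 7 megakaryocyte and platelet markers, 571 CPM against 121 to 269, and an erythroid sum of 39801 CPM, against 4315 to 22143 in the others. Mecom, a transcription factor of blood stem cells and megakaryocytes, was at 54.2 CPM there and at no more than 6.09 CPM elsewhere. Cdh5, the junctional cadherin of endothelium, was at 7.52 CPM in it and at 6.35 to 15 CPM in the other spleens. The part of blood-lineage cells in the Vwf level was not tested.

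In dendritic cells the genes were read in the same way, and most were low. Of the 34, 29 passed the filter on low counts, and Des, Cdh5, Tek, Stab2 and Madcam1 did not. Fn1 was at 239 to 692 CPM over the 12 libraries and Vwf at 51 to 129 CPM. Per kilobase of exon Fn1 led every group (35.4 CPM in naive wild-type cells), followed there by Eng at 7.72 and Vwf at 6.49. Madcam1 had 0 counts in all 12 libraries, which allows up to 0.0263 CPM in the group of lowest depth. Of the 4 endothelium-defining markers, Cdh5 was at most 0.393 CPM and Tek at most 0.442 CPM, while Kdr reached 30 CPM and Pecam1 was at 6.33 to 27.5 CPM. The 4 summed to 8.33 to 19.4 CPM in naive and 27.5 to 49.3 CPM in LPS-treated libraries. Stab2 was at 2.23 CPM (150 counts) in naive wild-type replicate 1, at most 0.0982 CPM in the other naive wild-type libraries and at 0 in the other 9. In that replicate Myh1, Myh2, Myh4 and Myh8, myosin heavy chains of skeletal muscle, also stood apart, with Myh2 at 10.6 CPM against at most 0.383 elsewhere. The 4 skeletal muscle markers (Acta1, Ckm, Myh4, Tnnt3) did not set it apart. They summed to 25.2 CPM there and to 8.67 to 60.7 CPM over the 12 libraries.

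With LPS, wild-type cells had 3 of the 29 genes higher and 1 lower. Kdr, the main receptor for vascular endothelial growth factor, Col4a2, a collagen IV chain, and Eng rose, and Postn (periostin, a matrix protein of fibroblasts) fell. Over the 16965 genes tested 18.1% were called higher and 15.8% lower, so these counts are below what all genes showed. In cells labelled knockout 5 were higher (Kdr, Col4a2, Eng, Pecam1, Pdgfrb) and 2 lower (Postn, Robo4), against 15.3% of all genes higher and 13.4% lower. The 2 comparisons share no library, but the 12 libraries share 1 estimate of spread. Median log2 fold changes were 0.18 and -0.45 for the genes that passed the filter, against -0.03 in both for all genes tested. Without TMM factors the median of all genes moved to -0.44 and -0.35, the calls over all genes to 1599 higher and 6128 lower in wild-type and 1441 and 4986 in labelled knockout cells, and those of the listed genes to 3 and 1, and to 4 and 6.

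**Figure D3:**
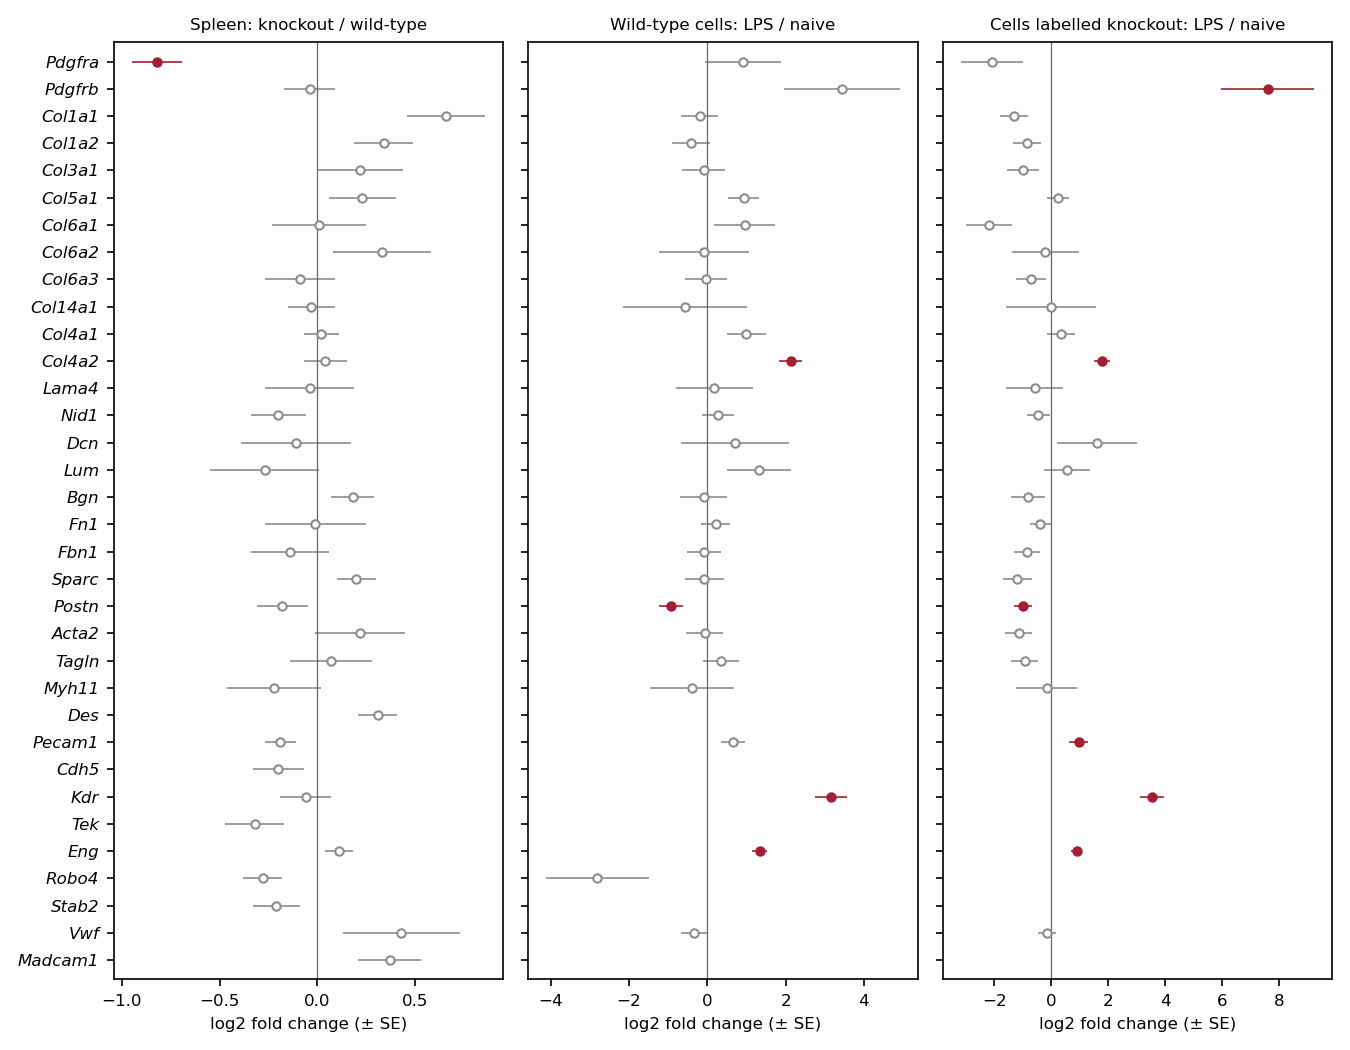
Log2 fold changes with standard errors from edgeR for the spleen comparison and for LPS against naive in wild-type and labelled knockout dendritic cells. Filled red points passed an adjusted p of 0.05, open grey points did not, genes with no point were not tested, and the value of Robo4 in labelled knockout cells is left out because all its LPS libraries were at 0. Kdr, Col4a2 and Eng lie to the right in both cell panels, while the spleen panel holds 1 red point, Pdgfra.

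Upstream sequences of 3 endothelial genes that moved with LPS are shown, 2 that rose and 1 that fell, because they are the windows in which binding motifs of LPS-activated and endothelial factors were looked for. They are RefSeq promoter entries on GRCm38.p6, written 5′ to 3′ on the gene's strand and ended before the annotated exon, at chr5:75978459-75978705 (minus) for Kdr, chr2:32646345-32646594 (plus) for Eng and chr9:37401722-37401896 (plus) for Robo4. Capitals mark matches to AGGAAG, 1 of the sequences bound by ETS factors, on either strand.
Kdr: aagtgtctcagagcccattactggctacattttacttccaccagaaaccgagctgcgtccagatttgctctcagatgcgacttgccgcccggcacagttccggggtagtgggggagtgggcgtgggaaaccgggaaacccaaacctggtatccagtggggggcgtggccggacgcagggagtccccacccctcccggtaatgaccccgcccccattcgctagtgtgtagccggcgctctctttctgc
Eng: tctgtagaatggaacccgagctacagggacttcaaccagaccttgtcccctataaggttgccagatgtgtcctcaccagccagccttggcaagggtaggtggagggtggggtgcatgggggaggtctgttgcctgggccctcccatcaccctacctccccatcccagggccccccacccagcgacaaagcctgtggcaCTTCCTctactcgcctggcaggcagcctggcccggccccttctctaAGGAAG
Robo4: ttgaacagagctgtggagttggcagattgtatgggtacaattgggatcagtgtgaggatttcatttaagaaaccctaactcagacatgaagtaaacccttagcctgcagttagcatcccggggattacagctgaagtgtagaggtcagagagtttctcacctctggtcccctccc
Eng held 2 matches, at bases 199 to 204 (reverse strand) and 245 to 250 of the window, and Kdr and Robo4 held 0. Other sequences that ETS factors bind were not searched for in any window. The motif TTCNNNGAA of STAT factors, read on both strands, had no match in the 3 windows, which says only that these letters are not in them. Among 32851 mouse promoters of the table, cut to the 250 bases before the start, 29.5% held AGGAAG and 7.02% TTCNNNGAA. The table had an entry for 22 of the 34 genes.

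Kdr was at 3.33, 1.16 and 3.94 CPM in naive wild-type replicates 1, 2 and 4, and at 25.4, 19.9 and 30 CPM in LPS-treated replicates 1 to 3. In cells labelled knockout it was at 1.51, 1.94 and 2 CPM naive and at 18.9, 14.8 and 29.7 CPM with LPS (replicates 2 to 4). Every LPS library lay above every naive one. The log2 fold changes were 3.15 ± 0.41 (SE, n = 3 against 3) with an edgeR adjusted p of 0.000214 and 3.54 ± 0.42 with 0.000165. The gene lies at 75932827 to 75978458 of chromosome 5, on the minus strand (GRCm38), and overlaps no annotated gene.

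Eng was at 32, 28.9 and 32.9 CPM in naive and 83.8, 57.6 and 95.9 CPM in LPS-treated wild-type cells. Libraries labelled knockout had 27.4, 30.1 and 26 CPM naive and 47.7, 43 and 64.3 CPM with LPS. Again no LPS library reached down to a naive one, and 2 of 3 LPS libraries labelled knockout lay below the lowest wild-type one. The changes were 1.34 ± 0.19 with an edgeR adjusted p of 0.000373 and 0.89 ± 0.19 with 0.00512. Eng overlaps Fpgs, Mir1954, Gm47291 and Gm26236 in the annotation, and whether the counting used strand is not given in the sources used here.

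Col4a2 was at 3.58, 2.45 and 2.43 CPM in naive and 15.2, 11.9 and 9.95 CPM in LPS-treated wild-type cells, and at 2.2, 2.92 and 4.26 against 9.7, 8.78 and 13.4 CPM in cells labelled knockout. The groups do not overlap in either comparison. Changes were 2.13 ± 0.29 with an edgeR adjusted p of 0.000265 and 1.77 ± 0.28 with 0.000995. Col4a1, which encodes the partner chain of the collagen IV trimer and starts head to head with Col4a2, overlapping it by 22 bases, did not pass, with a 95% interval of 0.05 to 1.95 for its log2 change in wild-type cells and an estimate of 0.35 ± 0.48 in cells labelled knockout (edgeR adjusted p of 0.141 and 0.64). Its naive libraries reached 4.86 and 4.87 CPM in wild-type replicate 1 and labelled knockout replicate 4, the libraries with the highest sums of fibroblast markers, 53.5 and 52.8 CPM against 14.6 to 34.1 in the other 10. Without those 2 libraries the wild-type estimate of Col4a1 was 1.56 with an adjusted p of 0.00893, and 6 listed genes were called there, all higher: Col4a1, Col4a2, Col5a1, Eng, Kdr and Tagln.

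Pecam1 was at 16.1, 9.06 and 11.8 CPM in naive and 11.4, 27.5 and 18.9 CPM in LPS-treated wild-type cells, which overlap. In cells labelled knockout it was at 9.95, 6.33 and 7.3 CPM naive and 15.2, 12.7 and 17.9 CPM with LPS, which do not. Its changes were 0.65 ± 0.31 with an edgeR adjusted p of 0.138 and 0.96 ± 0.32 with 0.0426, and the interaction of label and LPS was 0.31 ± 0.44. The second call was lost when any of 7 single libraries was left out, with adjusted p up to 0.131, and without TMM factors (0.62, adjusted p of 0.148). The wild-type value passed without LPS-treated replicate 1 (0.92, adjusted p of 0.0363).

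Postn was at 11.5, 7.97 and 4.59 CPM in naive and 3.88, 3.67 and 5.05 CPM in LPS-treated wild-type cells, so that 1 LPS library exceeded 1 naive one. In cells labelled knockout it was at 9.07, 5.9 and 7.57 CPM naive and 4.24, 3.13 and 3.9 CPM with LPS. It fell by 0.93 ± 0.31 on the log2 scale with an edgeR adjusted p of 0.0362 in wild-type cells. In cells labelled knockout the 95% interval of its log2 change was -1.60 to -0.40, with 0.0312. Either call was lost when some single libraries were left out, 4 in the wild-type and 5 in the labelled knockout comparison, the wild-type estimate moving to -0.62 with an adjusted p of 0.142 without naive wild-type replicate 1.

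Robo4 counts before LPS were 237, 408 and 467 in wild-type cells and 422, 262 and 201 in cells labelled knockout, or 3.22 to 7.42 CPM. With LPS it had 87 counts (2.39 CPM) in wild-type replicate 1 and 0 counts in the other 5 libraries. All 6 naive libraries thus lay above all 6 treated ones. In cells labelled knockout it was at least 224.0-fold lower with LPS, taking 3 counts over the group (0.022 CPM) as the floor, with an edgeR adjusted p of 0.0118. In wild-type cells the mean was 5.58 ± 1.79 CPM naive and 0.798 ± 1.38 CPM with LPS (SD, n = 3), with an adjusted p of 0.135. Without wild-type LPS replicate 1 that comparison passed too, with an adjusted p of 0.000525.

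**Figure D4:**
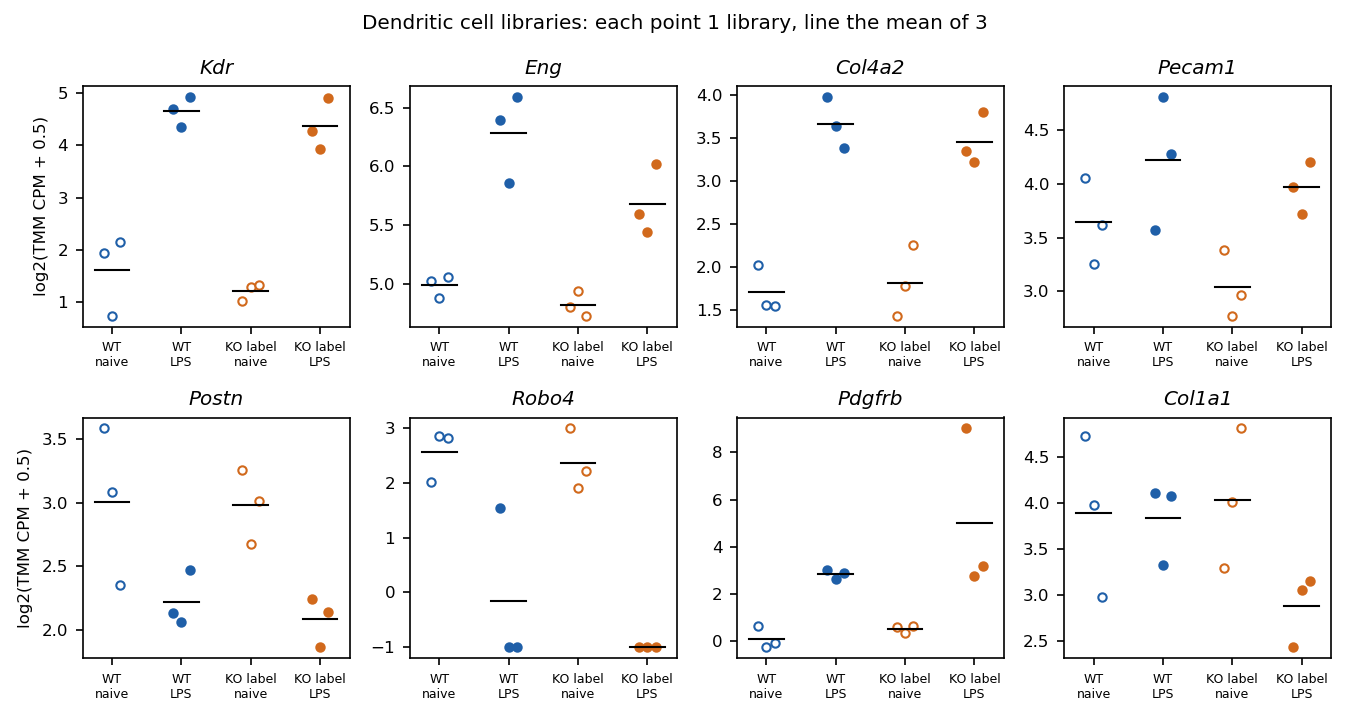
Level of 8 genes in the 12 dendritic cell libraries as log2(CPM + 0.5), open points naive and filled points LPS-treated, blue wild-type and orange labelled knockout, with the mean of 3 as a line. Kdr, Eng and Col4a2 are higher in every LPS library, Robo4 is at 0 CPM in 5 of 6, Pdgfrb stands far above the rest in 1 library (517 CPM), and Col1a1 shows the spread between naive libraries (7.38 to 27.5 CPM).

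Pdgfrb was at 1.07, 0.327 and 0.449 CPM in naive wild-type libraries and at 0.985, 0.763 and 1.03 CPM in naive libraries labelled knockout. With LPS it was at 7.59, 5.69 and 6.9 CPM in wild-type cells and at 517, 6.27 and 8.52 CPM in labelled knockout replicates 2, 3 and 4. The 5 treated libraries other than labelled knockout replicate 2 lay close together, all above every naive one. Change with LPS was 3.44 ± 1.48 in wild-type cells with an edgeR adjusted p of 0.1, and 7.59 ± 1.64 in labelled knockout cells with 0.00547. Without LPS-treated labelled knockout replicate 2 the values were 3.44 with an adjusted p of 0.000212, and 3.00 with 0.000947. The difference between labels in LPS-treated cells was 4.72 ± 1.40 with an adjusted p of 0.276, and 0.14 without that replicate.

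In that replicate the excess was not limited to Pdgfrb, which had 20366 counts. The genome annotation (GRCm38, by Ensembl identifier) places 6 protein-coding genes between Cd74 and Csf1r on chromosome 18, from 60813755 to 61085061, a stretch of 271 kb, and all 6 were higher in this library than in the other 11. Tcof1, a nucleolar protein, was at 1093 CPM against at most 74.3. Camk2a, a brain calmodulin kinase, was at 897 CPM against at most 1.3. Slc6a7, a proline transporter of brain, was at 159 CPM and Cdx1, an intestinal transcription factor, at 42.5 CPM, both with 0 counts in all other dendritic cell libraries. Arsi, a sulfatase, was at 31.9 CPM against at most 0.0743.

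The genes on either side differed less. Cd74, the invariant chain of MHC class II, was at 10776 CPM in the library and had a median of 10498 CPM in the others, and Csf1r, the receptor for macrophage colony-stimulating factor, was at 1076 CPM against 392 to 854. Hmgxb3, next beyond Csf1r, was at 40.1 CPM against 19.7 to 39.9. The 6 genes lie on both strands, 3 on each, and together took 0.243% of the counts of this library and 0.00502 to 0.00714% of the others. By a rule chosen after the values were seen (at least 100 counts and more than 5 times the highest level in any other dendritic cell library), 7 genes stood apart in this library, 6 of them these and the other Cpne9 on chromosome 6. Levels in naive labelled knockout replicate 2 were not raised, with Pdgfrb at 0.985 CPM there. No comparison between the groups of the study can be drawn from this single library.

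**Figure D5:**
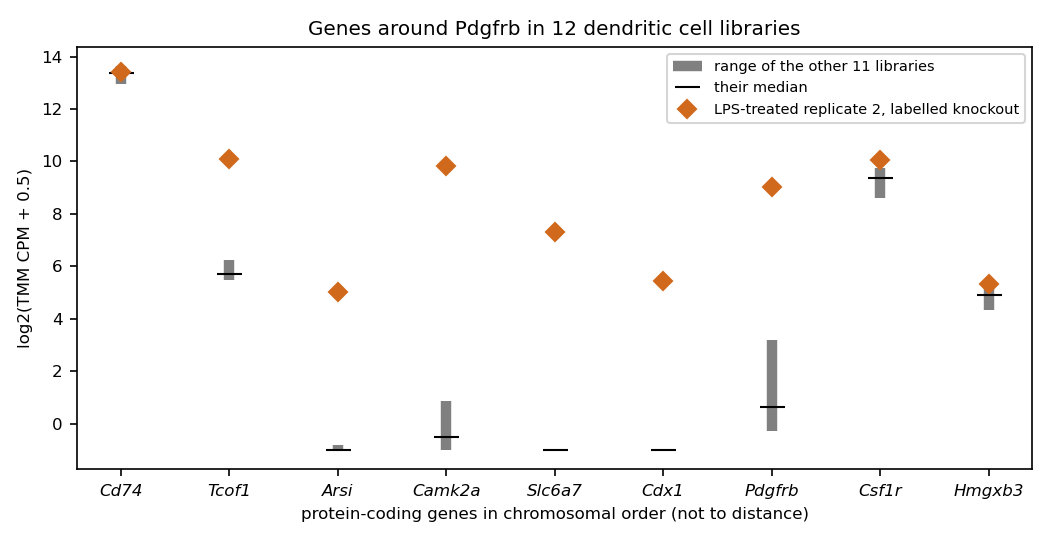
Protein-coding genes around Pdgfrb in chromosomal order, as log2(CPM + 0.5): diamonds show LPS-treated labelled knockout replicate 2, grey bars the range of the other 11 dendritic cell libraries and black dashes their median. The diamonds of the 6 genes from Tcof1 (1093 CPM) to Pdgfrb (517 CPM) lie above the bars. That of Csf1r also lies above its bar, by less (1076 CPM against at most 854), and those of Cd74 and Hmgxb3 lie within or at the edge of theirs.

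The remaining matrix and muscle genes did not pass in either LPS comparison. Collagen I, III, V and VI chains, Bgn, Fbn1, Sparc, Acta2 and Tagln were at most 27.5 CPM. Col1a1, Col1a2, Col3a1, Nid1, Bgn, Fbn1, Sparc, Acta2 and Tagln each had their 2 highest levels in naive wild-type replicate 1 and naive labelled knockout replicate 4. Col1a1, for example, was at 26, 15.2 and 7.38 CPM in naive and 16.7, 9.56 and 16.4 CPM in LPS-treated wild-type cells, and at 9.28, 15.6 and 27.5 against 4.9, 7.83 and 8.39 CPM in cells labelled knockout. The last 2 groups do not overlap, and the change was -1.31 ± 0.48 with an edgeR adjusted p of 0.0647. The 5 fibroblast markers, all of them detected in each group, summed to 16.1 to 53.5 CPM in naive wild-type, 18.9 to 52.8 in naive labelled knockout, 19.9 to 34.1 in LPS-treated wild-type and 14.6 to 18.1 CPM in LPS-treated labelled knockout cells. Smooth muscle markers summed to 18 and 18.2 CPM in the same 2 naive libraries and to 5.15 to 13.6 CPM in the other 10. Their part in these levels was not tested. DESeq2 called Col1a1, Col6a1 and Acta2 lower with LPS in cells labelled knockout, and did not call Pdgfrb.

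Between labels, 0 of the 29 genes were called by edgeR in naive cells, in LPS-treated cells or in the interaction of label and LPS. Over all 16965 genes 0% were called in each of the 3 comparisons, with 1139, 1914 and 678 genes at an unadjusted p under 0.05. DESeq2 called 76, 372 and 21 genes and limma's voom 1, 0 and 0, and DESeq2's calls included 1 listed gene, Robo4, lower in LPS-treated labelled knockout cells and in the interaction. In LPS-treated cells 24 of the 29 estimates were negative, with a median of -0.48, against -0.01 for all genes. Some other lists leaned the same way. Of 71 other listed genes of matrix, vessel wall and splenic stroma, 52 were negative and 18 positive (median -0.36). Dendritic cell and macrophage markers had 6 negative and 2 positive, while the 1 erythroid and 2 pancreas markers tested were positive. Pdgfra was at 0.22, 0.313 and 0.726 CPM in wild-type and 0.0508, 0.0399 and 0.0426 CPM in labelled knockout cells, which is 8 to 24 counts against 2 in each library, an estimate of -3.17 ± 1.11 with an edgeR adjusted p of 0.333. Tagln (4.33 ± 0.912 against 1.99 ± 0.185 CPM, SD, n = 3) and Acta2 (6.39 ± 1.89 against 2.94 ± 0.268 CPM, SD, n = 3) did not pass, with edgeR adjusted p of 0.415 and 0.416. The labels did not overlap for 5 of the 29 genes: Pdgfra, Col1a1, Col3a1, Acta2 and Tagln. The share of all genes without overlap was not computed, so nothing is read from that count.

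Other genes of the same pathways, 97 in lists that are not part of the 34, had 96 identifiers, of which 71 were tested in dendritic cells. In wild-type cells 13 rose with LPS and 8 fell, and in cells labelled knockout 11 rose and 11 fell. Over all genes 18.1% rose and 15.8% fell in the first comparison and 15.3% and 13.4% in the second, shares against which these counts and those of each list that follows are to be read. Without TMM factors these were 11 and 12, and 10 and 15. Without the 2 naive libraries high in fibroblast markers they were 10 and 5, and 7 and 4.

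Enzymes that process and crosslink collagen gave 5 genes higher and 2 lower of 13 tested in wild-type cells, and 3 and 1 in cells labelled knockout. P4ha1, a subunit of prolyl hydroxylase, went from 66.3 to 171 CPM in wild-type and from 65 to 145 CPM in labelled knockout cells, and Plod1, a lysyl hydroxylase, from 51.3 to 30.5 and from 45.5 to 33.8 CPM. Lox, which crosslinks collagen and elastin, was at 1.75 and 1.57 CPM naive and at 28.5 and 30.5 CPM with LPS, log2 changes of 4.02 ± 0.75 and 4.31 ± 0.76 with edgeR adjusted p of 0.0018 and 0.00173.

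Of 27 other matrix genes tested, 3 rose and 3 fell in wild-type cells, and 3 rose and 5 fell in cells labelled knockout. Agrin (Agrn), a heparan sulfate proteoglycan, changed by 3.75 ± 0.30 and 3.29 ± 0.29, the proteoglycan versican (Vcan) by 3.65 ± 0.33 and 3.05 ± 0.32, and thrombospondin 1 (Thbs1) by 1.95 ± 0.19 and 2.47 ± 0.20, in wild-type and labelled knockout cells. All 6 estimates had an edgeR adjusted p of at most 6.9e-05. Thbs1 reached 858 and 941 CPM with LPS.

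Ligands of the listed receptors gave 1 higher and 2 lower of 8 tested in both comparisons. Vegfa, the ligand of Kdr, went from 62.9 to 124 CPM in wild-type and from 40.2 to 123 CPM in labelled knockout cells, with edgeR adjusted p of 0.0155 and 0.00124. Vegfb, which binds Flt1, fell from 7.17 to 3.78 and from 6.63 to 2.79 CPM. Among 11 other endothelial genes tested 0 rose, 1 fell in wild-type cells (Flt1) and 2 in cells labelled knockout (Cd34 and Erg). Erg, an ETS factor of endothelium, had 70 counts in naive wild-type and 229 in naive labelled knockout cells, and 0 in all 6 LPS-treated libraries, at least 63.7-fold lower in the latter comparison.

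Smooth muscle and pericyte genes gave 2 higher of 7 tested in both comparisons, the actin-binding Synpo2 (3.38 ± 0.58 and 2.13 ± 0.54) and myosin light chain kinase Mylk (0.65 ± 0.18 and 0.72 ± 0.18), all in log2. Of 5 splenic stroma genes tested, podoplanin (Pdpn), a mucin of reticular cells and of activated macrophages, and the alarmin Il33 rose in both. In cells labelled knockout 1 other gene of that list fell, and in wild-type cells 0 fell. Pdpn went from 15.9 to 81.3 and from 22 to 88.7 CPM, with edgeR adjusted p of 0.000571 and 0.00169.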

How the data were processed

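RNA-seq gene counts of 31 mouse libraries (19 spleens, 12 dendritic cell libraries) were analysed. The deposited files hold, per the file headers and values, 1 whole-number count per Ensembl gene, not normalized. Per the submitters' processing notes, TopHat 1.3.3, Bowtie, SAMtools, bedtools and DESeq were used with build mm9, with no role stated. The annotation release, strand setting and treatment of multi-mapping reads are not stated by any source used here, so reads of overlapping genes may be split or shared. Genes absent from a file were set to 0. Places, lengths and overlaps are from GRCm38 by Ensembl identifier, not mm9.

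Counts were tested in R 4.3.3 with edgeR 4.0.16 (filterByExpr, TMM, robust quasi-likelihood F-test, two-sided), separately in 19 spleens (coefficient of biological variation 0.394, with 17 residual degrees of freedom) and 12 dendritic cell libraries (0.311, with 8), with Benjamini-Hochberg adjustment over all genes and a threshold of 0.05. Alternatives used DESeq2 1.42.0, limma 3.58.1 (voom with sample weights), other scalings and filters, left-out libraries and a replicate block. The code was tested on simulated counts. Folds against groups at 0 use 3 counts over the group. The 34 genes, other lists and motifs were chosen with earlier results of these data known. Genes with an adjusted p under 0.05 and Pdgfrb are given in full, the others by counts and ranges, with up to 3 of smallest p per other list. Genes named beyond this were chosen after their values were seen.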

Additional observations from a re-analysis of the deposited data

Results flagged for a closer look

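Of 68 tests of a gene in a genotype of spleen, 9 had 1 spleen farther from its neighbour than Dixon's 95% limit allows, and chance flags about 1 in 20 groups. Of the 9, 6 were high values of knockout replicate 3: Col6a1 at 114 CPM (next 62.7), Col6a2 at 91.2 (52.9), Lama4 at 9.95 (6.23), Bgn at 503 (373), Sparc at 406 (301) and Myh11 at 139 (77.3). Knockout replicate 4 was high for Vwf, at 276 CPM (next 84.9). In wild-type spleens replicate 7 was low for Kdr, at 25.7 CPM (next 33.9), and replicate 8 for Stab2, at 69.3 CPM (next 96.8).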

How the results depend on the processing

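The effect of depth was not tested. Lum rests on 21 to 188 counts in each spleen, many matrix genes rest on few counts in dendritic cells, and 3 libraries a group limit precision there. In spleen, 1 listed gene was called, 2 with DESeq2 or voom, and 36 genes in all, against 873 with DESeq2, 790 with voom, 190 without composition factors, 89 with GC content and length trends removed, 391 without knockout spleens 3 and 6 (chosen after seeing the data) and 297 without knockout spleens 4, 6 and 9. Leaving out 1 spleen gave 1 to 2 listed genes and 8 to 1051 genes, the highest without knockout replicate 6 and 103 without wild-type replicate 2.

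With LPS, leaving out 1 library gave 3 to 5 listed genes in wild-type and 5 to 9 in labelled knockout cells. Over all genes it gave 4546 to 6105 and 3435 to 5608. In labelled knockout cells 3 listed genes were called when the 3 libraries with over 100 Gpr34 counts were left out, which leaves LPS replicate 2 alone in its group, assumed to vary like the others, and 2994 genes without the 2 naive libraries high in fibroblast markers (chosen after seeing the data), against 4875 in all. Between labels, where edgeR called 0, DESeq2 called 76 genes in naive and 372 in LPS-treated cells and 21 in the interaction, with 1 listed gene in each of the last 2. Voom and the unfiltered fit called 1 gene each in naive cells. Without the 3 libraries 6 and 3 genes were called in LPS-treated cells and the interaction, 1 of them a listed gene in each (Pdgfrb). Leaving out 1 library gave 0 to 1, 0 to 2 and 0 genes. No called gene changed sign. Mean Eng levels on plain library sizes were 35.9 and 31.3 CPM in naive wild-type and labelled knockout cells.

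Whether replicate numbers pair the libraries is not stated, and the values do not settle it. Same-numbered spleens correlated at -0.0782 to 0.29 and dendritic cell libraries at -0.0894 to 0.0747. Wild-type spleens 1, 2 and 4 correlated best with the knockout spleen of their own number, and the other same-numbered spleens did not. Dendritic cell libraries were likewise mixed. With a replicate block 0 listed genes and 3 genes in all were called in spleen, 3 and 5 listed genes in wild-type and labelled knockout LPS comparisons, and 0 between labels. The calls not made under it were Pdgfra in spleen (-0.82, edgeR adjusted p of 0.135), Postn in wild-type (-0.88, 0.0951) and labelled knockout cells (-0.99, 0.0529), and Pecam1 in labelled knockout cells (0.97, 0.0821).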
